A study of Caenorhabditis elegans with 10 samples.

Results

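Voltage-gated calcium channels and the sodium leak channel NALCN set how strongly and how fast a nerve or muscle cell responds to a stimulus. The 9 genes described here encode their pore-forming and accessory subunits in Caenorhabditis elegans, out of 46272 genes in the authors' deposited table, and were chosen by name from the subunits of these channels. Of the 9, 8 stand in the table under the name used here, and nca-1 stands there as unc-77, another name of the same gene (sequence name C11D2.6).

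RNA came from cells of untreated wild-type animals grown on standard plates and sorted by fluorescence. There were 5 libraries of cells with a YFP label for ASH, a pair of polymodal nociceptive neurons of the head, and 5 of sorted cells lacking YFP, termed non-ASH. The sources used here do not give the age of the animals, the promoter driving YFP or whether the libraries came from separate sorts, so the adjusted p below may measure a technical spread only. The comparison asked which transcripts were enriched in ASH. The table gives 1 level per group in FPKM, a fragment count scaled to transcript length and library size, so no value below carries a standard deviation, and depth and the spread over libraries are unknown. Fold changes and p-values are those of the authors' 2 tools, DESeq2 on counts and Cuffdiff on FPKM, with ASH over non-ASH. A gene is said to have passed at a DESeq2 adjusted p under 0.05, over 16802 genes tested.

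A voltage-gated calcium channel is built around a large pore-forming alpha1 subunit, which a beta subunit inside the cell and an alpha2-delta subunit outside it help to reach the membrane. The worm has pores of the L-type, the presynaptic P/Q and N type, and the low-voltage T-type. NALCN channels conduct a small standing sodium current that holds neurons nearer to threshold, and in the worm their pores NCA-1 and NCA-2 depend on the large proteins UNC-79 and UNC-80.

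None of the 9 genes passed in either direction. DESeq2 called 0 higher and 0 lower per the authors' deposited table, where 5.32% of all tested genes were higher and 4.44% lower, and Cuffdiff at a q under 0.05 also called 0 and 0, beside 3.58% and 3.53%. Rules that only narrow the DESeq2 call could not add a member to 0, so their 0 and 0 were fixed in advance. Their backgrounds were 2.67% higher and 2.06% lower at an adjusted p under 0.01, and 4.9% and 4.08% with a change of at least 2-fold. Among genes at 1 FPKM or more in either group the backgrounds were 6.3% and 5.11%. At an unadjusted p under 0.05, DESeq2 had 1 of the 9, unc-2 on the higher side (background 11.4%), and 0 on the lower side (12.3%). Cuffdiff had 2 at that level, unc-2 higher (6.91%) and egl-19 lower (9.5%). The members were listed between 0.162 and 6.83 FPKM in ASH and between 0.531 and 6.84 FPKM in non-ASH per the authors' deposited table. In each fraction 1 of the 9 lay above the median of the tested genes, which was 6.41 FPKM (ASH) and 6.69 FPKM (non-ASH); it was unc-2 in ASH and the beta subunit gene ccb-1 in non-ASH. The log2 fold change was positive for 1 member and negative for 8 per the authors' deposited table, with a median of -0.35, while 54.3% of all tested genes were negative and their median was -0.085.

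**Figure D1:**
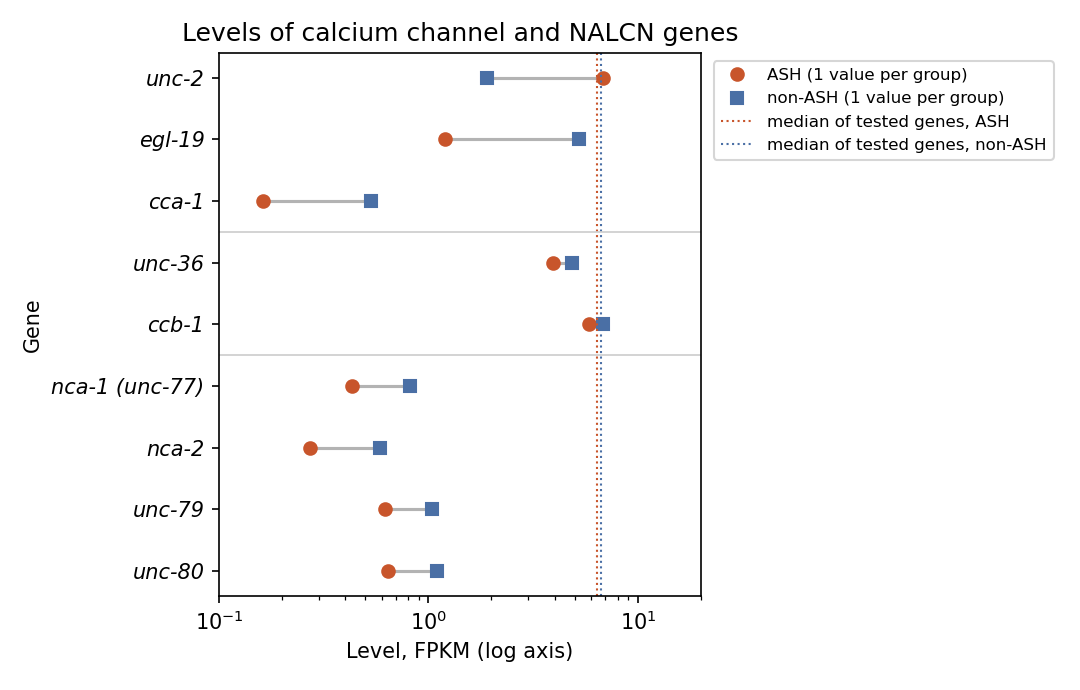
Level of each gene in FPKM on a log axis, with 1 value per sorted fraction (circles ASH, squares non-ASH) and dotted lines at the median of the tested genes; grey rules separate pore, accessory and NALCN genes. The gene unc-2 stands to the right in ASH (6.83 against 1.90 FPKM), and the other 8 stand to the right in non-ASH.

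The 3 pore genes of the calcium channels had the largest ratios of FPKM among the 9, but by DESeq2 the change of cca-1 was the smallest. The gene unc-2 on chromosome X, which encodes the presynaptic P/Q and N-type pore that admits calcium for transmitter release, was listed at 6.83 FPKM (ASH) and 1.90 FPKM (non-ASH) per the authors' deposited table. Its DESeq2 log2 fold change of 1.41, above that of 91.4% of the tested genes, did not pass (p = 0.0209, adjusted p = 0.125), and neither did that of Cuffdiff, at 1.43 (q = 0.105), per the authors' deposited table. The gene egl-19 on chromosome IV encodes the L-type pore, which carries the calcium current of body wall and pharyngeal muscle and also acts in neurons. It was listed at 1.20 FPKM (ASH) and 5.24 FPKM (non-ASH) per the authors' deposited table, the opposite order to unc-2. Its DESeq2 log2 fold change was -1.09 (adjusted p = 0.338) and its Cuffdiff log2 fold change -1.50 (q = 0.116) there. The gene cca-1 on chromosome X, for the T-type pore that opens at low voltage and helps the pharyngeal muscle to fire, was the lowest of the 9 in both fractions. It was listed at 0.162 FPKM (ASH) and 0.531 FPKM (non-ASH), with a DESeq2 log2 fold change of -0.21 (adjusted p = 0.798), per the authors' deposited table.

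Set side by side within a fraction by FPKM, the pore genes stood in a different order. In ASH the level of unc-2 was 5.69 times that of egl-19, and in non-ASH the level of egl-19 was 2.76 times that of unc-2, per length and from the FPKM of the authors' deposited table. The summed FPKM of the 3 pore genes was 8.19 in ASH and 7.67 in non-ASH. Of this sum unc-2 made up 83.4% in ASH and 24.7% in non-ASH, egl-19 14.6% and 68.3%, and cca-1 1.98% and 6.93%. This order and these shares rest on FPKM alone, whose differences between fractions were larger than those of DESeq2. For egl-19 the log2 ratio of FPKM was -2.13, beside -1.09 by DESeq2, and for unc-2 it was 1.85, beside 1.41. Whether the order in non-ASH would hold on counts is not known. The DESeq2 log2 fold changes of unc-2 and egl-19 lay 2.50 apart per the authors' deposited table. Neither gene passed by itself, and the difference between them could not be tested without values per library.

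**Figure D2:**
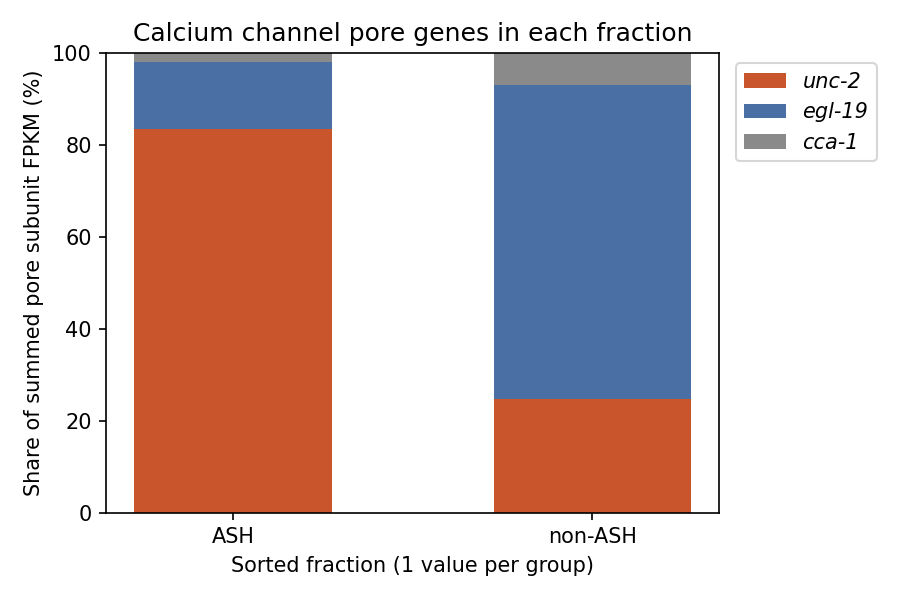
Share of the summed FPKM of the 3 calcium channel pore genes held by each gene, in percent, with 1 bar per sorted fraction and no replicate values. The share of unc-2 is 83.4% in ASH and 24.7% in non-ASH, and that of egl-19 is 14.6% and 68.3%. The shares rest on FPKM alone, and the DESeq2 fold changes of these genes were smaller than their FPKM ratios.

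The neuron and muscle markers gave the setting of these values. Of 11 genes published in ASH, 9 were higher in ASH and 0 lower per the authors' deposited table, with a summed level of 830 FPKM (ASH) and 122 FPKM (non-ASH); those with the smallest adjusted p were osm-10 (142 FPKM against 1.12, log2 fold change 5.34, adjusted p = 1.77e-11) and the TRPV channel genes ocr-2 (log2 fold change 3.53) and osm-9 (3.04). Of 13 pan-neuronal genes 0 passed by DESeq2's adjusted p and 0 by Cuffdiff's q (1 and 2 at an unadjusted p under 0.05, respectively), with 768 FPKM summed in ASH and 567 in non-ASH. All 8 pharyngeal muscle genes had negative fold changes, and 6 of them were lower in ASH by DESeq2, with 74.8 FPKM summed in ASH and 345 in non-ASH. Among these, myo-5, a myosin gene, stood at -2.77 on the log2 scale (adjusted p = 6.78e-05), and the troponin genes tnt-4 and tni-4 had -2.65 and -2.26 per the authors' deposited table. Of 12 body wall muscle genes 1 was higher, the myosin gene unc-54 (403 FPKM against 151, log2 fold change 1.11, adjusted p = 0.00542), and 0 were lower per the authors' deposited table. Of these 12, 9 had a negative log2 fold change and 3 a positive one, and the median was -0.35. Their summed level was 4955 FPKM (ASH) and 5092 FPKM (non-ASH), and no marker of these lists was at 0 in either fraction. The 8 members with negative fold changes, the NALCN genes included, thus had the sign of all 8 pharyngeal and of 9 of the 12 body wall muscle markers. The same sign was held by 7 of the 13 pan-neuronal markers and by 54.3% of all tested genes. The part of muscle RNA in the values of the members was not tested. Fewer cells of a type and less RNA per cell cannot be told apart in such pools.

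The accessory calcium channel genes stood at similar levels in both fractions, and neither passed. The gene ccb-1 on chromosome I encodes the beta subunit, and it was listed at 5.88 FPKM (ASH) and 6.84 FPKM (non-ASH) per the authors' deposited table. That made it the highest of the 9 in non-ASH and next to unc-2 in ASH, with a DESeq2 log2 fold change of -0.25 (adjusted p = 0.71). The gene unc-36 on chromosome III encodes an alpha2-delta subunit that acts with both UNC-2 and EGL-19. It was listed at 3.94 FPKM (ASH) and 4.83 FPKM (non-ASH), and its log2 fold change was -0.32 (adjusted p = 0.705), per the authors' deposited table. It was the third in level among the 9 in both fractions.

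The 4 NALCN genes were all listed at low levels and all lower in FPKM in ASH than in non-ASH, without passing. The pore gene unc-77 (nca-1, chromosome IV) had 0.433 FPKM (ASH) and 0.814 FPKM (non-ASH), and the pore gene nca-2 (chromosome III) had 0.272 and 0.587, per the authors' deposited table. The genes of their partners stood slightly above them, with 0.620 FPKM (ASH) and 1.04 FPKM (non-ASH) for unc-79 (chromosome III) and 0.642 and 1.10 for unc-80 (chromosome V) per the authors' deposited table. Both fractions therefore had the same order of level, from unc-80 through unc-79 and unc-77 to nca-2, and their highest and lowest values were 2.36 times apart in ASH and 1.87 times in non-ASH. The spread between libraries is not in the table, so which neighbours in that order differ beyond it is not known, and unc-79 stood at 0.966 times unc-80 in ASH and 0.942 times in non-ASH.

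The sizes of the 4 differences were close to each other on the FPKM scale. Non-ASH over ASH was 1.88-fold for unc-77, 2.16-fold for nca-2, 1.67-fold for unc-79 and 1.71-fold for unc-80. The DESeq2 log2 fold changes were -0.60 for unc-77 (adjusted p = 0.668), -0.83 for nca-2 (0.507), -0.35 for unc-79 (0.707) and -0.54 for unc-80 (0.651) per the authors' deposited table. Summed over the 4 genes the level was 1.97 FPKM (ASH) and 3.54 FPKM (non-ASH). A p that misses the threshold does not show equal levels, and at these low levels few genes of any kind passed. With the tested genes cut into 4 equal parts by level, the lowest part, below a mean of 1.18 FPKM, holds these 4 genes and cca-1. There 3.09% of the tested genes passed, and the median size of their log2 fold changes was 2.87. In the next part, which holds the remaining 4 members, 13.4% passed with a median size of 2.31.

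The direction for every one of the 9 genes was the same by DESeq2 and by the plain ratio of FPKM, but the size was not. Cuffdiff's fold change comes from the same FPKM, so its sign follows that ratio by arithmetic. For cca-1 the FPKM of the authors' deposited table stood 3.28-fold apart, a log2 ratio of -1.72, beside -0.21 by DESeq2 there. For egl-19 the FPKM stood 4.37-fold apart, a log2 ratio of -2.13, beside -1.09 by DESeq2 per the authors' deposited table. For unc-2 the log2 ratio was 1.85, beside 1.41. The fold changes of Cuffdiff hold an added 1 FPKM in each group and so lie near 0 for the NALCN genes, between -0.32 and -0.35 per the authors' deposited table.

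**Figure D3:**
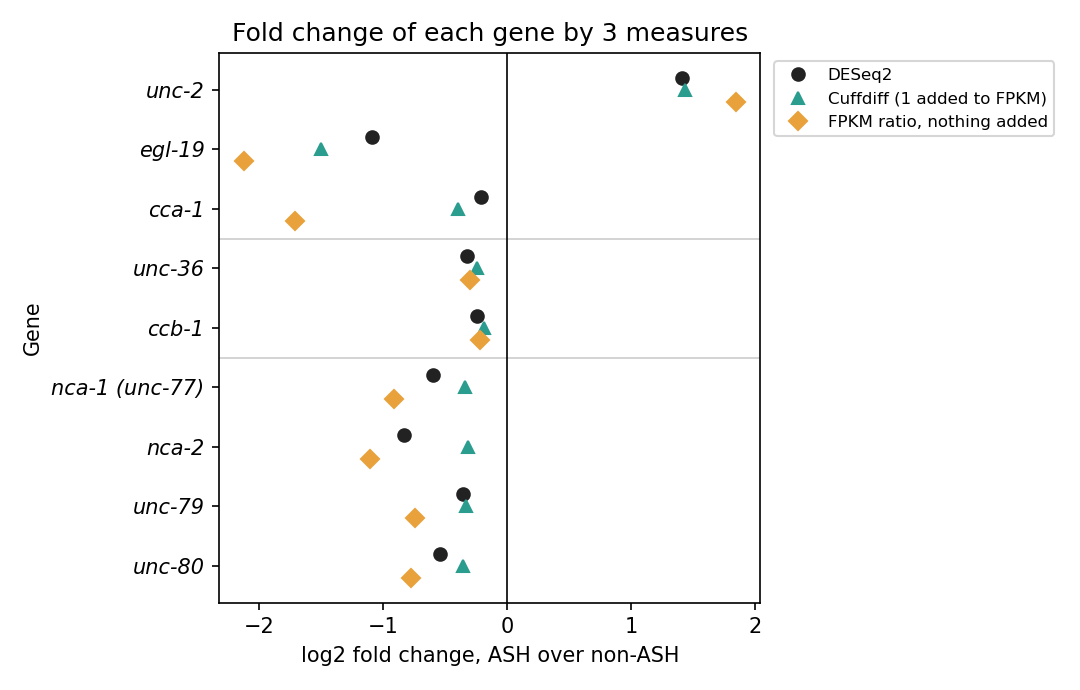
The log2 fold change of each gene, ASH over non-ASH, by DESeq2 (circles), by Cuffdiff on FPKM with 1 added (triangles) and as the plain log2 ratio of FPKM (diamonds), with no error available. All 3 marks lie right of 0 for unc-2 and left of 0 for the other 8, and they lie over 1 apart for egl-19 and cca-1. Triangles and diamonds come from the same FPKM and share their sign by arithmetic.

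The members also differ in gene structure as far as the table gives it. It lists 17 transcripts for unc-77, 6 for unc-2, 5 each for cca-1 and unc-80, 3 each for egl-19 and unc-36, 2 each for nca-2 and unc-79, and 1 for ccb-1. Exons of unc-36, nca-2 and unc-80 overlap exons of a protein-coding gene on the opposite strand in the WBcel235 annotation, namely C50C3.1, C27F2.6 and amx-3. The partner of unc-36 was listed at 39.2 FPKM (ASH) and 34.7 FPKM (non-ASH), and that of nca-2 at 0.668 and 0.989, each above its member in both fractions, per the authors' deposited table. The partner of unc-80, amx-3, was listed at 1.19 FPKM (ASH) and 0.775 FPKM (non-ASH) there, above unc-80 in ASH and below it in non-ASH. An exon of cca-1 overlaps the opposite-strand noncoding RNA gene C54D2.11, listed at 0.340 FPKM (ASH) and 5.25 FPKM (non-ASH) per the authors' deposited table. Likewise an exon of unc-2 overlaps the opposite-strand noncoding RNA gene F25H10.6, listed at 0 FPKM (ASH) and 0.511 FPKM (non-ASH) there. The libraries were strand-specific, but the sources used here do not say whether strand was used in counting, so reads of such pairs may not be separated.

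Genes whose products assemble with or deliver these channels did not pass either. Of 4 such genes DESeq2 and Cuffdiff each called 0, and tag-180 alone had an unadjusted p under 0.05 by DESeq2. The gene calf-1, for a membrane protein of the endoplasmic reticulum that brings UNC-2 to synapses, was listed at 4.45 FPKM (ASH) and 2.33 FPKM (non-ASH) (log2 fold change 0.62, adjusted p = 0.522) per the authors' deposited table. The gene nlf-1, for the corresponding factor of the NCA channels, was listed at 3.24 FPKM (ASH) and 5.34 FPKM (non-ASH) (log2 fold change -0.63, adjusted p = 0.478) there. Thus calf-1 had the sign of unc-2 and nlf-1 that of the NCA genes, with no value past the threshold. The subunit genes unc-36 and ccb-1 had the opposite sign to unc-2, and 54.3% of all tested genes were negative. The further alpha2-delta gene tag-180 had a log2 fold change of -1.30 (adjusted p = 0.176), and the further beta subunit gene ccb-2, at 0.204 FPKM (ASH) and 0.355 FPKM (non-ASH), had -0.88 (adjusted p = 0.58) per the authors' deposited table.

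Among wider lists of calcium signalling, 3 genes passed, where 5.32% of all tested genes were higher and 4.44% lower. Of 17 calcium sensors, kinases and other effectors 2 were higher and 0 lower per the authors' deposited table, with a median log2 fold change of 0.20. They were ncs-2, for a neuronal calcium sensor, at 302 FPKM (ASH) and 140 FPKM (non-ASH) (log2 fold change 1.08, adjusted p = 0.0181), and the transcription factor gene crh-1 (log2 fold change 0.66, adjusted p = 0.0444); Cuffdiff called neither (q = 0.212 and 0.439) per the authors' deposited table. The kinase gene cmk-1, singled out after its values were seen, was listed at 39.0 FPKM (ASH) and 9.46 FPKM (non-ASH), and Cuffdiff called it (q = 0.00588) while DESeq2 did not (log2 fold change 1.75, adjusted p = 0.0559) per the authors' deposited table. The large-conductance potassium channel genes slo-1 and slo-2 had log2 fold changes of -0.34 and -0.16 per the authors' deposited table and did not pass. Of 13 calcium pumps and exchangers 1 was lower and 0 higher, with a median log2 fold change of -0.56. It was the exchanger gene ncx-8, at 0.273 FPKM (ASH) and 2.30 FPKM (non-ASH) (log2 fold change -2.82, adjusted p = 0.00489), per the authors' deposited table, and Cuffdiff called it too (q = 0.0103).

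The remaining lists had 0 genes past the threshold by DESeq2 and 0 by Cuffdiff. They were 11 genes of calcium stores, 10 of them tested by DESeq2 with a median log2 fold change of 0.04, and 8 of the active zone, with a median of -0.16. At an unadjusted p under 0.05 DESeq2 had 0 in both lists, and Cuffdiff had 1 in each, in the stores itr-1, which has no DESeq2 p. The gene unc-13, which primes synaptic vesicles, had a log2 fold change of -0.18 per the authors' deposited table.

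**Figure D4:**
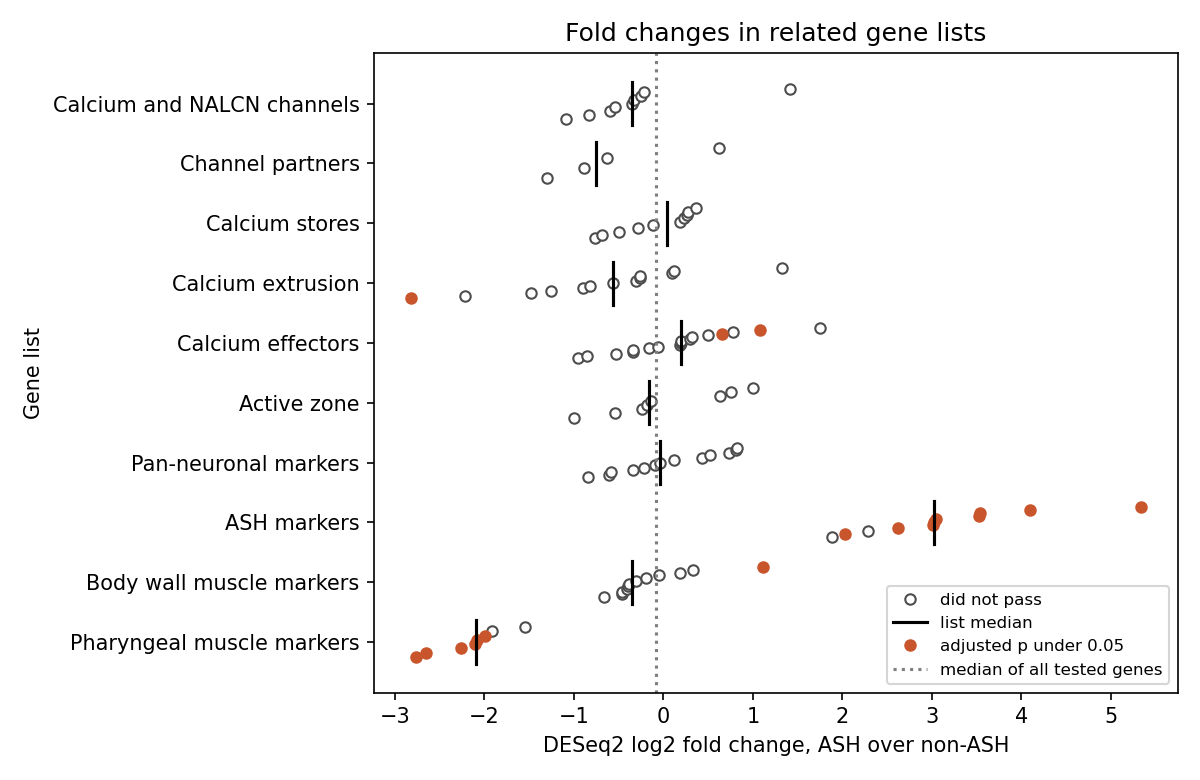
DESeq2 log2 fold change, ASH over non-ASH, of each tested gene in the channel list and 9 related lists, with filled points past an adjusted p of 0.05, a bar at each list's median and a dotted line at the median of all tested genes (-0.085). No point of the channel list is filled, 9 of the 11 ASH markers are filled to the right, and 6 of the 8 pharyngeal muscle markers are filled to the left.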

How the data were processed

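The libraries were strand-specific and made from poly(A)-selected RNA, per the labels' protocols. The submitters' processing notes name TopHat2 2.0.13 with Bowtie2 2.2.1, and FastQC, HTSeq, DESeq2, Cufflinks and Cuffdiff. The genome build, annotation and counting rules are not given in the sources used here, and no coordinates are printed. The authors' group levels are Cuffdiff FPKM with 1 added, per the file headers and the values, and the 1 was subtracted here. Each tool has its log2 fold change, deposited by the authors, and recomputation showed Cuffdiff's to be the log2 of the ratio of the group values with the 1 included. Whether the authors shrank those of DESeq2 is not given. The p-values and q-values were deposited by the authors, and DESeq2's adjusted p was checked to equal a Benjamini-Hochberg adjustment over 16802 genes.

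Of 46273 rows, 1 repeat was dropped. No differential test was run here, since the planned fits on values per library were not possible. Genes were matched by listed name or, failing that, current symbol, and nca-1 by its other name. The members and lists were chosen with earlier results of these data known. Named are all members, the channel partners, from each other list up to 3 passing genes, smallest adjusted p first, and slo-1, slo-2 and unc-13; 1 further list is not reported here. The genes cmk-1, ncx-10 and itr-1, and in the closing section those with a gap between FPKM ratio and fold change, were chosen after their values were seen. Alternatives were Cuffdiff's q, an adjusted p under 0.01, a 2-fold minimum, a floor of 1 FPKM and pseudocounts of 0.1 and 5; no pseudocount, unadjusted p and matching on table names only were chosen after seeing the data. Computation used Python 3.11.15 and pandas 2.3.3.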

Additional observations from a re-analysis of the deposited data

How the results depend on the processing

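The count of 0 members higher and 0 lower was the same with Cuffdiff's q. An adjusted p under 0.01, a 2-fold minimum, a floor of 1 FPKM and matching on table names only each narrow the DESeq2 call. Their 0 and 0 were therefore fixed in advance. Unadjusted, DESeq2 gave 1 higher and 0 lower, and Cuffdiff 1 higher and 1 lower. No member changed sign between DESeq2 and the FPKM ratio. Cuffdiff and the pseudocounts use the same group levels, so their signs could not differ from that of the ratio. With a pseudocount of 0.1 the log2 FPKM ratio was -2.04 for egl-19 and -1.27 for cca-1, with none -2.13 and -1.72, and with a pseudocount of 5 it was 0.78 for unc-2 and -0.084 for nca-2. The cause of the gap to DESeq2 was not tested for egl-19 and cca-1, while a pseudocount of 5 exceeds most of these levels by construction. Calcium effectors had 1 higher by Cuffdiff's q and 0 at an adjusted p under 0.01, in place of 2, and calcium extrusion had 2 lower by Cuffdiff's q in place of 1. No paired analysis was possible because the table holds no values per library, and leaving out single libraries was not run for the same reason. Depth is unknown, and whether the low levels of the NALCN genes kept them from passing was not tested.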

Other observations

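Levels and fold changes stood apart for some genes of the related lists, all singled out after their values were seen. Of 96 tested genes in these lists, 7 had a log2 FPKM ratio over 1 away from the DESeq2 log2 fold change. The active zone gene unc-10, for the RIM protein that tethers presynaptic calcium channels, had the widest gap of the 96, at 0.00657 FPKM (ASH) and 0.730 FPKM (non-ASH) beside a DESeq2 log2 fold change of -0.55 (adjusted p = 0.622), per the authors' deposited table. The ryanodine receptor gene unc-68, for the calcium release channel of muscle and neurons, was listed at 0.106 FPKM (ASH) and 1.20 FPKM (non-ASH) beside a DESeq2 log2 fold change of -0.77 (adjusted p = 0.421) per the authors' deposited table. The other 5 were sra-6, osm-10, pqn-74, syd-2 and ncs-4. Over all 16742 tested genes above 0 in both groups, the gap was over 1 for 9.75%, and 2 of the 9 channel genes, egl-19 and cca-1, were among these. The inositol trisphosphate receptor gene itr-1, at 1.45 FPKM (ASH) and 4.995 FPKM (non-ASH), had a DESeq2 log2 fold change of -1.05 without a p per the authors' deposited table.

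The exchanger gene ncx-10 was listed at 0.360 FPKM (ASH) and 1.96 FPKM (non-ASH), and Cuffdiff called it lower (q = 0.0238) while DESeq2 did not (log2 fold change -2.22, adjusted p = 0.082) per the authors' deposited table.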
